A study of Sus scrofa domesticus with 6 samples.

Results

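Osteoclasts are the multinucleate cells that resorb bone and mineralised cartilage, and this account follows 8 genes of their resorbing machinery, cell fusion and transcriptional control through the developing pig jaw joint. The genes were ACP5, CTSK, MMP9, STRIP2, CALCR, DCSTAMP, OCSTAMP and NFATC1, picked by name out of 25322 gene rows. The deposited table names 6 of them, each on 1 row. OCSTAMP and NFATC1 are not among its gene names, and 2 unnamed rows carry their Ensembl identifiers, ENSSSCG00000007448 and ENSSSCG00000004856, according to a table of pig identifiers and symbols.

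The series profiled total RNA, after removal of ribosomal RNA, from the mandibular condyle of miniature pig embryos at day 85 (3 libraries) and day 45 (3 libraries) of age. No treatment, mutation or transgene separates the groups, and the submitters label every library as cartilage with chondrocytes and osteocytes as its source. The title places the comparison in the ossification of the condyle. Nothing in the labels ties a library to its own embryo or litter, and the p-values speak for the spread of these 6 libraries, which may be partly technical.

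Total counts per library ran from 12546729 to 16559616. The labelled tissue was visible in the data: 10 chondrocyte markers with a row summed to 1923 to 6759 CPM (counts scaled to normalised library size) at day 85, against 15233 to 19092 CPM at day 45. Of the osteocyte markers, SOST, DMP1, PDPN and FGF23 were detected in all libraries and MEPE stayed near or below 1 CPM. Day 85 replicate 2 stood apart from replicates 1 and 3, with COL2A1, the main cartilage collagen, at 1074 CPM against 28.8 and 50.6 CPM. Its chondrocyte sum was 6759 CPM, against 1923 and 3646 CPM. In replicates 1 and 3 the 10 skeletal muscle markers with a row summed to more than that, 32048 and 26237 CPM, against 2212 CPM in replicate 2. Which of these libraries is nearer to the labelled tissue was not tested. Results that rest on day 85 replicate 2 are also given without it.

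Osteoclasts form by fusion of precursors of the monocyte and macrophage lineage under CSF1 and RANKL. RANKL signalling raises NFATC1, the transcription factor that drives the osteoclast program, and DC-STAMP and OC-STAMP are membrane proteins that mouse osteoclast precursors need in order to fuse. The mature cell seals off a patch of matrix, acidifies it with a proton pump and digests it with cathepsin K, the product of CTSK, while tartrate-resistant acid phosphatase, the product of ACP5, is its classical histochemical stain. MMP9 is a gelatinase made by osteoclasts and their precursors at the front of growing cartilage, and the calcitonin receptor CALCR lets the hormone calcitonin restrain resorption. STRIP2 encodes a striatin-interacting protein of a phosphatase and kinase complex and is less closely tied to these cells.

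In the day 85 condyles all 8 genes had a higher fitted level than in the day 45 condyles, and 7 of them lay higher in every day 85 library than in any day 45 library. ACP5, CTSK and MMP9 averaged 1592, 1809 and 2299 CPM at day 85, and the fusion genes DCSTAMP and OCSTAMP 13.3 and 5.44 CPM. Of all 15022 genes tested, 17.4% lay wholly above and 17.6% wholly below the other age in this way, and 51.8% had a positive log2 fold change. At least a 4-fold higher fitted level was found for 6 of the 8 genes, against 2.5% of all genes tested, and the median log2 fold change was 3.20 over the 8 genes and 0.02 over all. Only STRIP2 passed the test over all genes (adjusted p under 0.05, edgeR's quasi-likelihood test), which 3.9% of all genes did upward, 2.66% downward and 6.56% in all. With library totals in place of TMM normalisation the calls over all genes were 437 higher and 598 lower, against 586 and 400. DESeq2 called 5 of the 8 higher, STRIP2 among them, and of the 16446 genes to which it gave an adjusted p it called 12.6% higher and 10.8% lower. With an unadjusted p under 0.05, 7 of the 8 were higher, against 15.8% of all genes. OCSTAMP enters these counts, although it passed the filter on low counts through its day 85 libraries alone. Without it, 6 of 7 genes did not overlap, 5 were at least 4-fold higher, 6 reached an unadjusted p below 0.05, and their median log2 fold change was 2.80. Leaving out day 85 replicate 2 lowered the number with at least a 4-fold higher level to 2. In bulk RNA, more osteoclasts and more of each RNA per osteoclast at day 85 cannot be told apart.

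**Figure D1:**
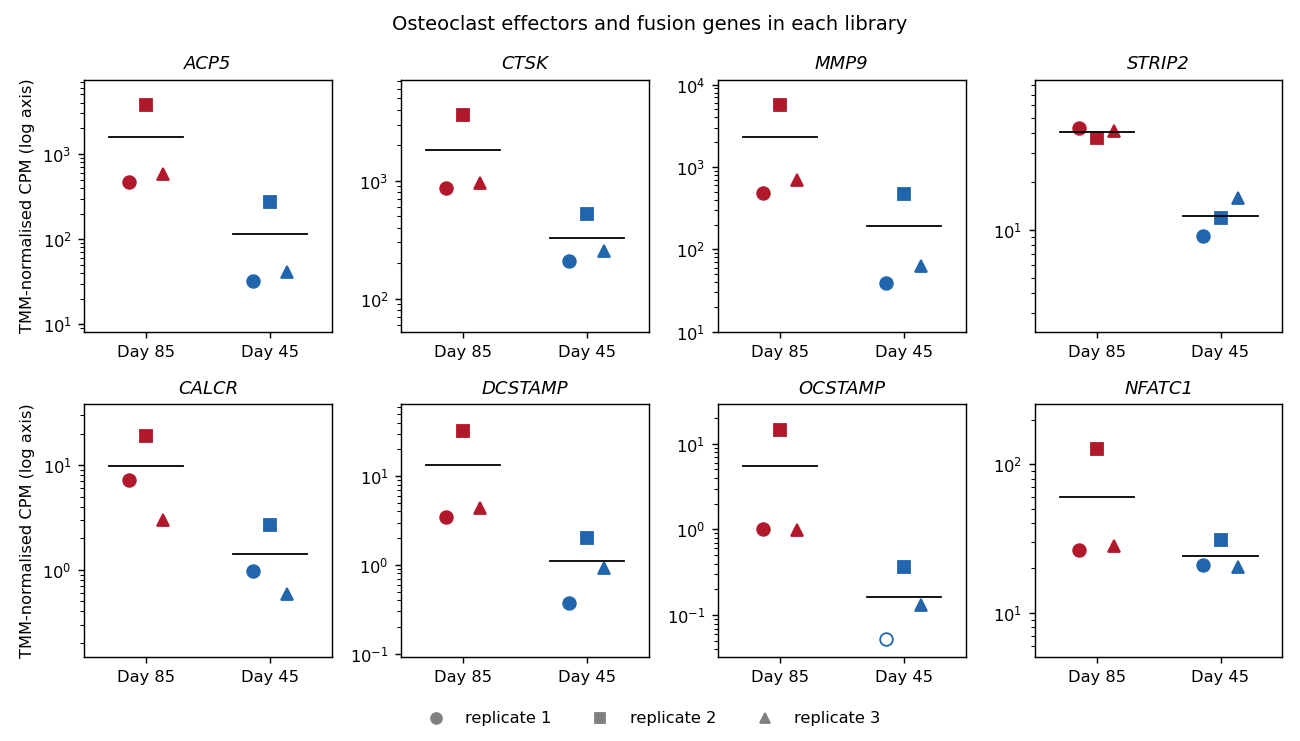
Normalised CPM (log axis, a separate scale for each gene) of the 8 genes in each library, with day 85 on the left and day 45 on the right; symbols mark the replicate number and lines the mean of 3 libraries. The open circle for OCSTAMP stands for a library with 0 counts; in all genes but STRIP2 replicate 2 (square) is the highest library at each age, and only NFATC1 overlaps between ages.

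The phosphatase gene ACP5 and the protease genes CTSK and MMP9 were the most abundant of the 8. ACP5 had 469, 3721 and 586 CPM in day 85 replicates 1, 2 and 3, against 32.4, 272 and 41.3 CPM in day 45 replicates 1, 2 and 3. The ages did not overlap, and at each age replicate 2 exceeded the mean of the other libraries, by 7.06-fold at day 85 and by 7.38-fold at day 45. The difference did not pass (log2 fold change 3.79 ± 1.26, standard error, SE; adjusted p = 0.119). Its row lies on an unplaced contig, at 2000 to 3913. Positions are those the authors deposited, and no source used here names their genome build.

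CTSK, on chromosome 4 at 107641167 to 107653106, had 864, 3605 and 957 CPM in the day 85 libraries, against 207, 518 and 255 CPM in the day 45 libraries. Here too the ages did not overlap and replicate 2 was the highest, but the gap to its companions was smaller, 3.96-fold at day 85 and 2.24-fold at day 45. The gene averaged 1809 ± 1556 CPM at day 85 and 327 ± 167 CPM at day 45 (SD, n = 3 each), a difference that did not pass (log2 fold change 2.47 ± 0.69, SE; adjusted p = 0.0841). Without day 85 replicate 2 the difference was smaller, at a log2 fold change of 1.48 ± 0.38 (SE), but passed (adjusted p = 0.0404).

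MMP9, on chromosome 17 at 53819788 to 53827092, showed the widest spread between libraries among the 3 enzymes, with 480, 5716 and 702 CPM at day 85, against 39.5, 469 and 63.0 CPM at day 45. Day 45 replicate 2 came within 1.02-fold of the lowest day 85 library, so the ages were only just separate. Replicate 2 exceeded the mean of the other 2 libraries 9.67-fold at day 85 and 9.15-fold at day 45, beside a fitted 12.1-fold difference between the ages. That difference did not pass (log2 fold change 3.59 ± 1.42, SE; adjusted p = 0.160). MMP9 is also stored by neutrophils, and the 11 neutrophil and granulocyte markers with a row summed to 24.97 to 49.99 CPM at day 85 and 9.23 to 21.9 CPM at day 45, with MMP8 at or near 0 in all libraries and 0 of 10 tested past the test by edgeR. Of these, 9 had a positive log2 fold change, beside 51.8% of all genes. By edgeR 3, CAMP, AZU1 and PRTN3, had an unadjusted p under 0.05 and lay wholly higher at day 85. CAMP had 1.31, 8.07 and 0.923 CPM at day 85, against 0, 0 and 0.458 CPM at day 45. It passed the filter through its day 85 libraries alone. DESeq2 called 2 markers of the list higher. MMP9 was highest in replicate 2 at both ages, where the sum of these markers was the highest of the day 85 libraries and the lowest of the day 45 libraries. The part of neutrophils in the difference of MMP9 was not tested.

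The fusion genes were scarce. DCSTAMP, on chromosome 4 at 35670748 to 35677167, had 45, 482 and 66 counts in the day 85 libraries, against 6, 28 and 14 counts in the day 45 libraries. This corresponds to 3.48, 32.1 and 4.35 CPM at day 85, against 0.367, 2.02 and 0.916 CPM at day 45, without overlap. Fitted over all libraries, the log2 fold change of 3.61 ± 1.12 (SE) did not pass (adjusted p = 0.102), and it was 1.85 without day 85 replicate 2.

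OCSTAMP, whose row lies on chromosome 17 at 54443915 to 54450548, had 13, 215 and 15 counts at day 85, against 0, 5 and 2 counts at day 45. Since it passed the filter on its day 85 counts alone, a difference had to be present. Day 85 replicate 2 held 215 of the 243 counts of that age, at 14.3 CPM against 1.00 and 0.989 CPM in replicates 1 and 3. The fitted log2 fold change of 5.05 ± 1.57 (SE; adjusted p = 0.103) did not pass, rests on 7 counts at day 45 and is imprecise. Both genes were detected in every library but day 45 replicate 1, where OCSTAMP had 0 counts and DCSTAMP 6. The CPM of DCSTAMP was 3.46, 2.24 and 4.4 times that of OCSTAMP in the day 85 libraries and 5.6 and 7 times in day 45 replicates 2 and 3.

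The calcitonin receptor CALCR, on chromosome 9 at 80111374 to 80163883, had 94, 286 and 45 counts at day 85, against 16, 37 and 9 at day 45, or 7.27, 19.1 and 2.97 CPM against 0.980, 2.67 and 0.589 CPM. The ages did not overlap, but the lowest day 85 library stood only 1.11-fold above the highest day 45 library. CALCR was the gene in which day 85 replicates 1 and 3 were least alike. Its log2 fold change of 2.80 ± 0.85 (SE) did not pass (adjusted p = 0.0970).

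NFATC1, the transcriptional regulator, was the 1 gene of the 8 whose ages overlapped. It had 26.7, 126 and 28.1 CPM at day 85, against 20.9, 31.1 and 20.2 CPM at day 45. Day 85 replicates 1 and 3 lay below day 45 replicate 2, and only day 85 replicate 2 stood out. Its log2 fold change of 1.33 ± 0.66 (SE) did not pass (adjusted p = 0.239), and it was 0.19 without day 85 replicate 2 (adjusted p = 0.543). Its row, on chromosome 1 at 161527669 to 161632553, overlaps that of ATP9B, and without a stated strand setting reads could be shared. ATP9B had 19.1, 27.9 and 24.6 CPM at day 85, against 13.96, 15.4 and 18.4 CPM at day 45, with no peak of the size of that of NFATC1 in day 85 replicate 2. Of the related factors, NFATC2 had a log2 fold change of -0.25, NFATC3 of 0.68 and NFATC4 of -0.79, and none passed (adjusted p = 0.222, 0.114 and 0.123).

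STRIP2, on chromosome 18 at 20279718 to 20326503, was the exception in its evenness. It had 43.4, 37.3 and 41.2 CPM at day 85, against 9.12, 11.8 and 15.8 CPM at day 45. The lowest day 85 library was 2.36-fold above the highest day 45 library, and replicate 2 was not the highest at either age. STRIP2 rose 3.32-fold, to 40.6 ± 3.10 CPM at day 85, against 12.2 ± 3.35 CPM at day 45 (SD, n = 3 each). On the log2 scale the difference was 1.73 ± 0.21 (SE; adjusted p = 0.0181). The call held without day 85 replicate 2 and without day 45 replicate 3, and was lost without each of the other libraries, where the adjusted p ran up to 0.109 while the log2 fold change stayed between 1.54 and 1.72.

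**Figure D2:**
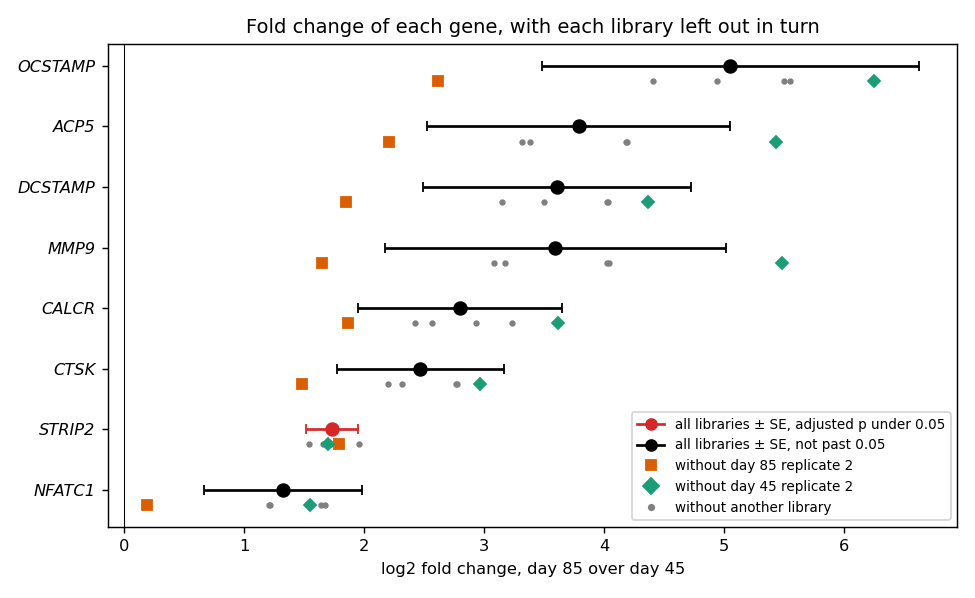
Log2 fold change, day 85 over day 45, of each gene with its standard error (large points, n = 3 libraries per age) and, beneath each, the value with 1 library left out. Leaving out day 85 replicate 2 (squares) lowers every gene but STRIP2, to 0.19 for NFATC1, and leaving out day 45 replicate 2 (diamonds) gives the highest values for ACP5, MMP9, DCSTAMP, OCSTAMP, CALCR and CTSK.

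Leaving out replicate 2 moved most fold changes in opposite directions at the 2 ages. Without day 85 replicate 2 the log2 fold change was 2.21 for ACP5, 1.65 for MMP9, 1.87 for CALCR and 2.61 for OCSTAMP. Without day 45 replicate 2 it was 5.43 for ACP5, 5.49 for MMP9, 3.62 for CALCR and 6.25 for OCSTAMP. All 8 genes stayed positive whichever library was left out. In 7 of the 8 genes replicate 2 was the highest library at both ages, which held for 18.3% of all genes tested.

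Levels of different genes can be compared per length, in FPKM as the authors deposited it. In day 85 replicate 2, ACP5 reached 3128 FPKM, CTSK 2142 and MMP9 2128, ranking 15th, 20th and 21st of all rows in that library. At day 85 the mean FPKM was 1361 ± 1530 for ACP5, 1103 ± 899 for CTSK and 867 ± 1093 for MMP9 (SD, n = 3). These SDs overlap, but they measure the spread between libraries, which the genes share. Within each library MMP9 was below ACP5, at 0.453 to 0.763 times its FPKM. In every library ACP5, CTSK and MMP9 exceeded the other 5. They were followed by NFATC1 at 21.4 ± 19.3, STRIP2 at 8.30 ± 1.03, DCSTAMP at 7.41 ± 8.83, CALCR at 3.16 ± 2.56 and OCSTAMP at 1.86 ± 2.59 FPKM, of which neighbours again overlap within 1 SD. Even so, in each day 85 library NFATC1 exceeded STRIP2 and CALCR exceeded OCSTAMP, whereas the order of DCSTAMP with STRIP2 and with CALCR varied. At day 45 CTSK stood first in every library, at 207 ± 98.4 FPKM, before ACP5 at 102 ± 117 and MMP9 at 74.3 ± 92.1. NFATC1 had 8.92 ± 1.91, STRIP2 2.57 ± 0.84, DCSTAMP 0.644 ± 0.470, CALCR 0.467 ± 0.350 and OCSTAMP 0.0590 ± 0.0634 FPKM. Of neighbours in the day 45 order, NFATC1 and STRIP2, and STRIP2 and DCSTAMP, lay farther apart than their SDs.

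Within a library, the genes kept unequal proportions to one another. The FPKM of MMP9 was 0.453, 0.680 and 0.531 times that of ACP5 at day 85 and 0.540, 0.763 and 0.675 times at day 45, a 1.68-fold range, although MMP9 itself ranged 137-fold and ACP5 109-fold over the same libraries. CTSK was 1.30, 0.685 and 1.15 times ACP5 at day 85, against 4.52, 1.34 and 4.36 times at day 45. CTSK thus outweighed ACP5 most where both were lowest, in day 45 replicates 1 and 3. NFATC1 followed the same order of libraries, at 0.0234, 0.0140 and 0.0197 times ACP5 at day 85 and 0.265, 0.0470 and 0.201 times at day 45. DCSTAMP, at 0.00484, 0.00563 and 0.00485 times ACP5 in the day 85 libraries, held a nearly fixed proportion at that age.

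**Figure D3:**
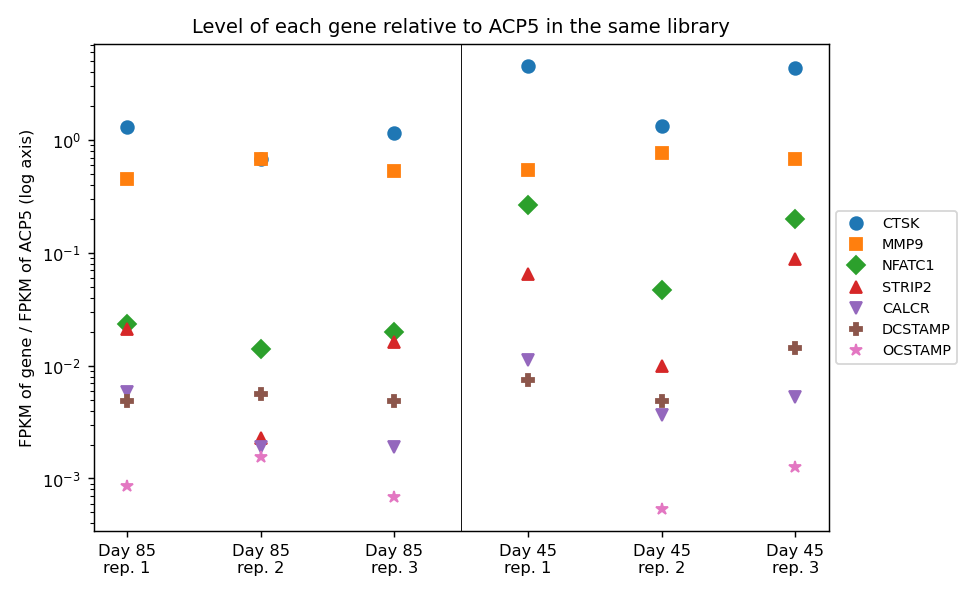
FPKM of each of the other 7 genes divided by that of ACP5 in the same library (log axis), day 85 left of day 45; OCSTAMP had 0 counts in day 45 replicate 1 and has no point there. MMP9 stays between 0.453 and 0.763 throughout, whereas CTSK, NFATC1 and STRIP2 are highest relative to ACP5 in day 45 replicates 1 and 3.

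CSF1R, the CSF1 receptor carried by macrophages as well as osteoclast precursors, gave a second yardstick. It had 65.6, 312 and 74.4 CPM at day 85, against 16.7, 43.9 and 28.9 CPM at day 45. The CPM of CTSK was 13.2, 11.5 and 12.9 times that of CSF1R at day 85 and 12.4, 11.8 and 8.82 times at day 45, so this proportion overlapped between ages. ACP5 was 7.16, 11.9 and 7.87 times CSF1R at day 85, against 1.94, 6.19 and 1.43 times at day 45, without overlap. NFATC1 ran the other way, at 0.407, 0.405 and 0.377 times CSF1R in the day 85 libraries and 1.25, 0.708 and 0.699 times in the day 45 libraries. Relative to CSF1R, DCSTAMP and OCSTAMP were wholly higher at day 85, like ACP5, but MMP9 and CALCR overlapped between ages. MMP9 was 7.32, 18.3 and 9.43 times CSF1R at day 85, against 2.36, 10.7 and 2.18 times at day 45. These ratios are descriptions of 3 libraries per age and were not tested.

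Profiles over the 6 libraries were compared by the root-mean-square difference of log2 CPM after each gene was centred on its own mean, where a smaller value means a closer course. Among the 8 genes the closest pairs were ACP5 with MMP9, at 0.26, and DCSTAMP with OCSTAMP, at 0.32. OCSTAMP had only 0, 5 and 2 counts at day 45. Its distances therefore depend on the prior count of 2 that was added before the logarithm. CTSK lay 0.53 from CALCR and 0.55 from DCSTAMP but 1.01 from ACP5. STRIP2 lay 0.88 or more from every other gene of the set and farthest from MMP9, at 1.84. Such distances also depend on how widely each gene itself ranges. The median distance to all tested genes was 2.38 for MMP9, 1.40 for CTSK and 0.95 for STRIP2. Within the set, STRIP2 lay nearer than its own median of 0.949 only to CTSK (0.877) and, barely, to NFATC1 (0.947). From ACP5, MMP9, CALCR, DCSTAMP and OCSTAMP it lay farther than that, at 1.13 or more. Set against the median of the other gene of each pair instead, it lay nearer to each except NFATC1. All 6 libraries enter each value, and genes measured in the same libraries share their depth and makeup.

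Outside the set, 11730 named genes averaging at least 1 CPM could be compared. ACP5 was closest to SIGLEC15, a sialic acid receptor of osteoclast precursors (0.40), ATP6V0D2, a proton pump subunit (0.42), and CH242-204P3.6 (0.44). MMP9 was closest to OSCAR, an osteoclast-associated receptor, and ATP6V0D2 (both at 0.485), then to SIGLEC15 (0.54). DCSTAMP and OCSTAMP shared OSCAR (0.29 and 0.38) and TM4SF19 (0.34 and 0.41), followed for DCSTAMP by a row named RAC3 but described as RAC1 (0.34) and SIGLEC15 for OCSTAMP (0.45). CTSK was closest to GPR183, a receptor for oxysterols (0.10), SLC37A2, a sugar phosphate transporter (0.16), and CSF1R (0.19), and NFATC1 to SYT6 (0.10), LAT2 (0.14) and ADAM8 (0.15). CALCR had MMP13 (0.33), a metallothionein gene listed as MT1X (0.34) and the globin gene HBM (0.35), none as near as the neighbours of CTSK. STRIP2 was closest to GBP5 (0.12), ADGRL4 (0.15) and BCL6B (0.17). The neighbours listed for STRIP2, and likewise those for CTSK, CALCR and NFATC1, were not shared with another of the 8 genes.

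Several marker lists moved with the set between libraries. The 8 genes summed to 1895, 13271 and 2322 CPM at day 85, against 310, 1306 and 397 CPM at day 45. The 14 macrophage and monocyte markers with a row summed to 310 to 863 CPM at day 85 and 101 to 182 CPM at day 45, highest in replicate 2 at both ages, and 4 of the 12 tested rose; CD163 and MARCO were at or near 0 in all libraries. The sum of the 8 genes was 4.75, 15.4 and 7.49 times the macrophage sum at day 85 and 3.06, 7.19 and 2.53 times at day 45. Within that list, CSF1R and CD68 peaked in day 85 replicate 2, at 312 and 293 CPM, but the complement gene C1QC had 98.9, 89.5 and 56.2 CPM in the day 85 libraries, with no peak there.

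The summed osteoblast, osteocyte and hypertrophic chondrocyte markers were also highest in replicate 2 at both ages. The 8 osteoblast markers with a row summed to 6490, 17404 and 5991 CPM at day 85, against 4950, 7089 and 2879 CPM at day 45, and SPP1, osteopontin, which osteoclasts make too, is among them. Skeletal muscle and endothelial markers were lowest in replicate 2 at both ages: the 10 muscle markers with a row summed to 32048, 2212 and 26237 CPM at day 85, against 6999, 3624 and 8162 CPM at day 45. The part of tissue makeup in the differences of the 8 genes was not tested. Beside STRIP2, the 8 endothelial markers with a row summed to 1475, 945 and 1101 CPM at day 85, against 399, 287 and 552 CPM at day 45, with 5 of 8 higher by the test. Their part in the rise of STRIP2 was not tested. NFATC1 is also used by T cells. The 11 T and B cell markers with a row summed to 19.5 to 39.8 CPM at day 85, against 12.8 to 24.7 CPM at day 45, with 1 of 7 tested lower by the test and 0 higher, at an unadjusted p under 0.05 or by DESeq2 too. CD3E, CD3D and CD3G stayed below 1 CPM in all libraries, while the T cell kinase LCK had 1.86, 1.40 and 0.857 CPM at day 85, against 0.306, 0.433 and 0.981 CPM at day 45. Their part in the values of NFATC1 was not tested.

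**Figure D4:**
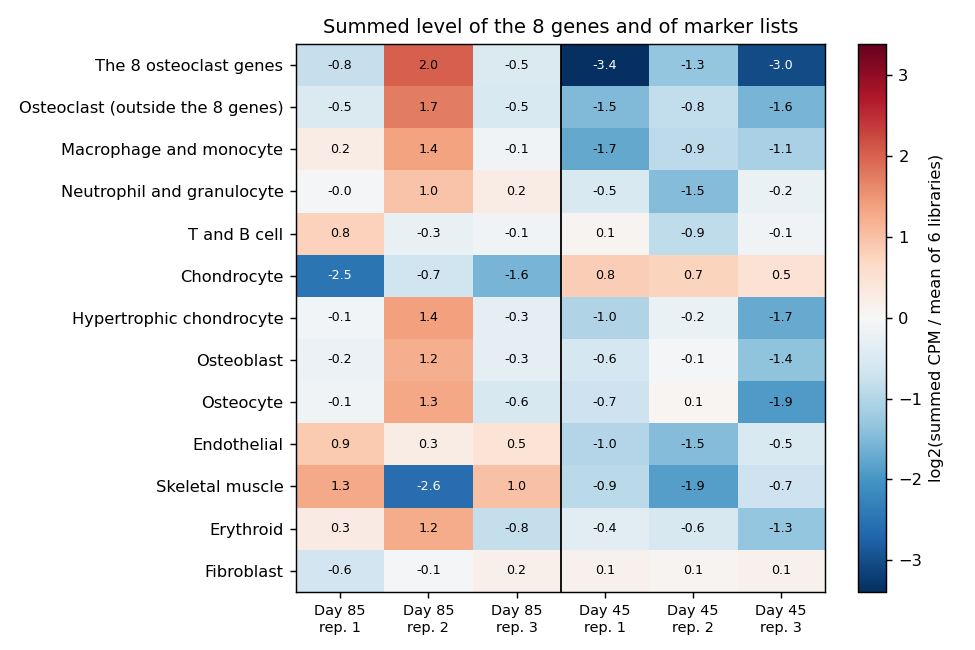
Summed CPM of the 8 genes and of each marker list in each library, as log2 of the ratio to the mean of the 6 libraries, day 85 left of day 45; red is above and blue below that mean. Day 85 replicate 2 is the highest library for the 8 genes (2.03), the other osteoclast markers (1.74) and the macrophage markers (1.36), and the lowest for skeletal muscle (-2.58). That library is also the highest for hypertrophic chondrocyte (1.38), osteocyte (1.31), erythroid (1.25), osteoblast (1.22) and neutrophil (0.95) markers.

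Other genes of osteoclast formation and resorption were examined in 5 lists with 70 genes in all, of which 64 had a row and 61 were tested. Over the union, 9 rose and 1 fell, 53 had a positive log2 fold change, and the median was 1.13. Of all genes tested, 3.9% rose, 2.66% fell and 51.8% had a positive log2 fold change. The ages did not overlap for 34 genes that were higher and 3 that were lower, beside 17.4% and 17.6% of all genes. Without day 85 replicate 2, 20 of the union rose and 2 fell. Calls over all genes went up in that fit too, from 586 to 1884 higher and from 400 to 1528 lower. Without each of the other libraries 0 or 1 of the union rose, beside 0 to 93 of all genes. Day 85 replicate 2 was the highest library of its age in 4 of the 9 genes that rose, beside 44.4% of all genes tested. The 3 genes with the highest fold changes, SIGLEC15, TM4SF19 and OSCAR, did not pass. TM4SF19 had 14, 147 and 15 counts at day 85, against 1, 8 and 1 counts at day 45. Like OCSTAMP it passed the filter on its day 85 counts alone, so a difference had to be present. It is among the 53 positive genes and the 34 wholly higher ones.

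The receptors and adaptors of osteoclast precursors had the highest median, 2.18, with 7 of 8 wholly higher at day 85. By edgeR 0 passed, 7 had an unadjusted p under 0.05, and DESeq2 called 7. SIGLEC15 stood at 5.64, 53.0 and 7.32 CPM at day 85, against 0.551, 2.16 and 0.523 CPM at day 45, and missed the threshold (log2 fold change 4.37 ± 1.16, SE; adjusted p = 0.0746). TNFRSF11A, which encodes the RANKL receptor RANK, had 11.9, 40.3 and 12.9 CPM against 2.82, 3.61 and 5.30 CPM and did not pass either (adjusted p = 0.0538). CSF1R and TYROBP, an adaptor of activating receptors, had log2 fold changes of 2.34 and 2.03, also not past the test (adjusted p = 0.103 and 0.0724).

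Among 20 tested transcription factors and signalling genes, 5 rose. FOS, a partner of NFATC1 in the osteoclast program, had 44.9, 134 and 150 CPM at day 85, against 21.0, 19.4 and 14.1 CPM at day 45 (adjusted p = 0.0372). PPARGC1B, a coactivator of mitochondrial genes in osteoclasts, rose with no peak in replicate 2, at 31.5, 23.1 and 36.5 CPM against 8.76, 5.34 and 9.36 CPM (adjusted p = 0.0213). BCL6, a repressor of osteoclast genes in mice, rose too (log2 fold change 1.27, adjusted p = 0.0287), as did TFEC, a relative of MITF, and TRAF6, the adaptor of RANK (adjusted p = 0.0487 and 0.0379). SPI1, which encodes the lineage factor PU.1, had 59.8, 252 and 52.8 CPM against 25.6, 52.0 and 30.4 CPM and did not pass (adjusted p = 0.156).

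Acid secretion and attachment genes were positive in 14 of 14 tested, with a median of 1.53 and 1 past the test, the kinase PTK2B (log2 fold change 1.89, adjusted p = 0.0433). The proton pump subunit ATP6V0D2 had 36.6, 236 and 32.2 CPM at day 85, against 3.98, 21.5 and 4.51 CPM at day 45 and did not pass (log2 fold change 3.35 ± 1.11, SE; adjusted p = 0.116). The abundant CKB and SLC4A2 overlapped between ages (adjusted p = 0.243 and 0.429). Of 12 other genes of matrix digestion, 3 rose: the lysosomal protease CTSL, the cathepsin inhibitor CST3 and the metalloprotease ADAM12, by 4.42-fold, 2.84-fold and 2.35-fold (adjusted p = 0.0196, 0.0491 and 0.0200). The other gelatinase, MMP2, stood at 1858, 3170 and 2931 CPM at day 85, against 3081, 3957 and 2652 CPM at day 45, overlapping, unlike MMP9. Of 10 cell fusion genes, 0 rose and PDPN, podoplanin, which is also an early osteocyte marker, fell (log2 fold change -1.21, adjusted p = 0.0259); TM4SF19 had 1.08, 9.80 and 0.989 CPM against 0.0612, 0.577 and 0.0654 CPM, and CD44 overlapped (adjusted p = 0.535). At an unadjusted p under 0.05 edgeR had 4 fusion genes higher, among them TM4SF19, which passed the filter through its day 85 libraries alone. DESeq2 called 4 fusion genes higher and 1 lower.

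**Figure D5:**
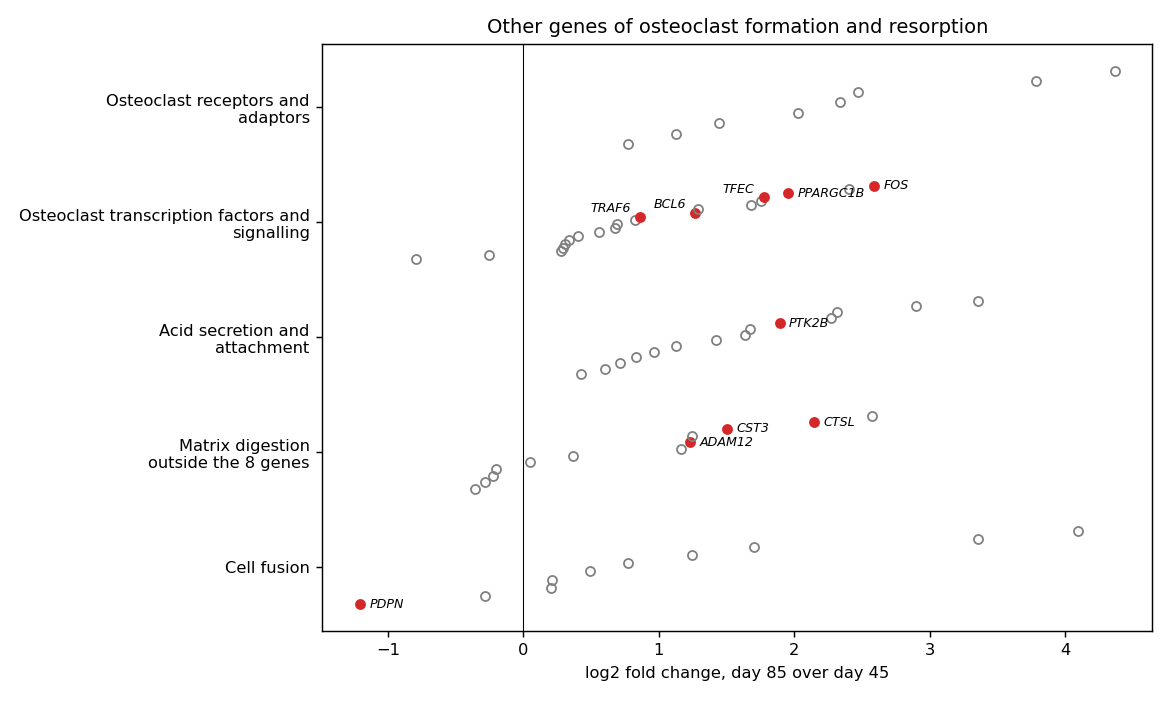
Log2 fold change, day 85 over day 45, of every tested gene in 5 lists of osteoclast formation and resorption; filled and named points passed the test (adjusted p under 0.05, n = 3 libraries per age) and open points did not. All 8 receptors and all 14 acid secretion and attachment genes lie to the right of 0, and PDPN at -1.21 is the 1 gene that fell.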

How the data were processed

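Samples were condyles from pig embryos, grouped by the age in their titles. The authors deposited raw read counts of each gene as whole numbers and, beside them, FPKM (fragments scaled to gene length and library total), per the file headers. The submitters' processing notes name HISAT2. No source used here gives its version, the counter, its strand setting, the build or the annotation. For 10748 genes with at least 50 counts in each library, FPKM equalled count over library total and a factor per gene within 0.00123%.

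Counts were tested with edgeR 4.0.16 (R 4.3.3): filterByExpr with a minimum count of 10, TMM, robust quasi-likelihood F test, age as the only factor, Benjamini-Hochberg adjustment over the 15022 genes left, two-sided, called under 0.05. The standard error is the log2 fold change over the square root of F. CPM are TMM-normalised. The code was tested on simulated data. Alternatives used limma 3.58.1 and DESeq2 1.42.0.

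The 8 genes, the pathway lists and the marker lists were chosen with earlier results of these data known, and ratios to CSF1R after values were seen. Named pathway genes were, per list, up to 4 called genes of at least 1 CPM with the largest change, or the 2 most abundant where fewer than 2 were called; others were named after their values were seen.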

Additional observations from a re-analysis of the deposited data

How the results depend on the processing

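All 8 genes stayed higher at day 85 in each setting that tested them: RLE, upper-quartile and library-total scaling, no filter, 1 CPM in at least 3 libraries (which dropped OCSTAMP), DESeq2, limma-voom, limma-trend on log2(FPKM + 0.1) or log2(FPKM + 1), non-robust dispersion, replicate block and each library left out. STRIP2 was called in all but 4 leave-one-out fits. DESeq2 called 5 of the 8 (ACP5, CTSK, STRIP2, CALCR and DCSTAMP; MMP9 had adjusted p = 0.0664 and OCSTAMP none), 30 pathway genes higher and 2 lower, and 2064 genes higher and 1770 lower in all. Without each library in turn, 0 to 2 of the 8 were called, 0 to 20 pathway genes higher and 0 to 2 lower, and 0 to 1884 genes higher and 0 to 1528 lower. The zeros for the 8 genes came without day 85 replicates 1 or 3 and day 45 replicates 1 or 2, where 7, 8, 2 and 7 had an unadjusted p under 0.05.

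Limma-voom called 6 pathway genes higher. Library totals alone called 437 genes higher and 598 lower, against 586 and 400 with TMM, and limma-trend 402 or 412 higher; the cause was not tested.

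The labels do not say whether replicate numbers pair the samples. Deviations of same-numbered libraries from their age mean correlated at 0.01, 0.25 and 0.04 across genes for numbers 1, 2 and 3. Day 85 replicate 2 correlated best with day 45 replicate 2, but day 85 replicate 1 with day 45 replicate 3 and day 85 replicate 3 with day 45 replicate 1. Deviations within an age sum to 0, so these correlations cannot settle the pairing. With the replicate block, 7 of the 8 genes (all but NFATC1) and 14 pathway genes were called higher, beside 465 of all 15022 genes (3.1%), and 217 genes were called lower in all.

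Depth limits OCSTAMP, DCSTAMP and CALCR, with 7, 48 and 62 counts in all at day 45: their log2 fold changes became 1.07, 1.88 and 1.34 on log2(FPKM + 1).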
